A study of Mus musculus with 9 samples.

Results

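Creatine cycling and calcium cycling are routes by which fat cells spend ATP as heat without Ucp1, the uncoupling protein of brown and beige fat. In all, 8 genes of these routes were followed through the peak lists: Ckb, Ckmt2, Gatm, Gamt, Slc6a8, Alpl, Atp2a2 and Ryr2. They were chosen by name and are 8 of the 21938 protein-coding genes of the GENCODE M21 annotation. For each gene, peaks were counted at the promoter, taken as 1 kb on each side of any annotated transcript start, and in the region, taken as the gene body plus 20 kb on each side. Each peak was also given its rank by −log10 q, the peak caller's measure of how sure a peak is, among the peaks of the same list.

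In the creatine cycle, Gatm and Gamt carry out the successive steps of creatine synthesis and Slc6a8 brings creatine into the cell. Creatine kinases such as Ckb and the mitochondrial Ckmt2 phosphorylate creatine, and Alpl, the tissue-nonspecific alkaline phosphatase, has been described in mouse thermogenic fat as the enzyme that releases the phosphate again. In the calcium cycle, Atp2a2 (the SERCA2 pump) spends ATP to move calcium into the endoplasmic reticulum and Ryr2, a calcium release channel best known from heart muscle, lets it out.

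The study concerns Ets1, an ETS family transcription factor, in beige fat, and deposited 9 peak lists, 1 for each group and assay. Beige adipocytes were differentiated for 6 days in culture from the stromal vascular fraction, which is what remains of the inguinal pad without its fat-filled cells, of wild type male C57 mice aged 3 to 4 weeks. The other libraries came from mature adipocytes floated from inguinal fat of male mice aged 8 to 10 weeks, which were wild type C57 after 7 days of cold stress (CS) or at room temperature (RT). The same fraction came from Ets1 knock-in mice with adipoq-cre (EA+/+) and mice with the knock-in allele but no Cre (EC+/+), and from Ets1 knockout mice made with adipoq-cre (EAKO) and floxed mice without Cre (Flox). The knock-in allele sits at the Hipp11 locus behind a stop cassette, and once Cre has removed that cassette a CAG promoter, which is active in most cell types, drives it. EC+/+ and Flox mice therefore carried the altered alleles too. Ets1 was profiled by CUT&Tag in beige, CS and RT cells, the active-chromatin mark H3K27ac by CUT&Tag in EA+/+, EC+/+, EAKO and Flox adipocytes, and open chromatin by ATAC in EAKO and Flox adipocytes.

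A single library stood for each group, so no p-value could be given and every value describes those libraries. The Ets1 lists held 30553 peaks in beige cells, 14858 in CS and 4056 in RT adipocytes. The H3K27ac lists held 38484 (EA+/+), 33713 (EC+/+), 74682 (EAKO) and 86834 (Flox) peaks, and ATAC held 82839 (EAKO) and 88977 (Flox). Lists of such different length give any gene a different chance of a peak. The main counts over several genes are therefore set beside the same counts over all genes or all peaks. In bulk chromatin, fewer cells of a type and less signal per cell cannot be told apart. Of 10 adipocyte marker genes, 6 had a promoter peak in the beige Ets1 list (46.4% of all genes), 2 in CS (32.7%) and 0 in RT (4.06%). In H3K27ac 5 had one in each list, against 50.4% (EA+/+), 52.0% (EC+/+), 60.5% (EAKO) and 63.9% (Flox) of all genes. In ATAC 6 had one in each list, against 66.0% (EAKO) and 67.7% (Flox). Adipoq, Cidec and Cfd had none in any list. The Ets1 promoter itself had a peak in both the EAKO and the Flox lists, which does not check the knockout, since peaks at the promoter do not show the deleted part.

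Promoter peaks were found at 7 of the 8 genes in at least 1 list. Gamt had one in all 9 lists, Atp2a2 in 8 (all but RT Ets1), Gatm, Slc6a8 and Alpl in 6 each, Ckb in 4, Ryr2 in 2 and Ckmt2 in 0. Over all protein-coding genes, 3.08% had a promoter peak in all 9 lists and 26.4% in no list. In the Ets1 lists, 4 of the 8 genes had a promoter peak in beige cells (46.4% of all genes), 2 in CS (32.7%) and 1 in RT (4.06%). In the H3K27ac lists the counts were 5 in EA+/+ (50.4% of all genes), 4 in EC+/+ (52.0%), 6 in EAKO (60.5%) and 6 in Flox (63.9%). In the ATAC lists they were 6 in EAKO (66.0%) and 7 in Flox (67.7%). Counts over 8 genes cannot be set apart from shares of this size. In the wider regions, at least 1 Ets1 peak was found at 7 of the 8 genes in beige cells (69.3% of all genes), 4 in CS (57.2%) and 2 in RT (14.7%). H3K27ac peaks were found in the regions of 8 genes in EA+/+ (76.4% of all genes), 7 in EC+/+ (74.6%), 8 in EAKO (80.6%) and 8 in Flox (82.3%), and ATAC peaks in those of 8 in EAKO (83.3%) and 8 in Flox (83.7%). Ckmt2 was the gene without a peak in beige cells and EC+/+, and Gamt and Ryr2 were the genes with one in RT.

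**Figure D1:**
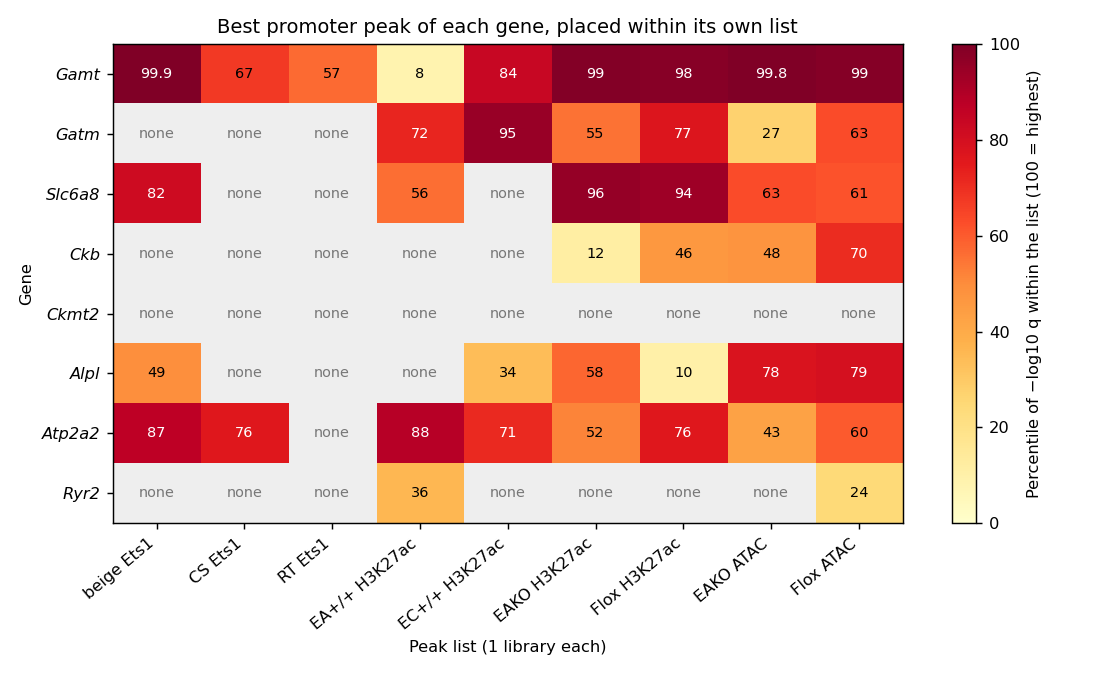
Each cell gives the percentile of a gene's best promoter peak (highest −log10 q) among all peaks of that list, with 100 as the highest and "none" for no promoter peak; rows are the 8 genes and columns the 9 lists. Gamt stands at 99.9 in the beige Ets1 list and Ckmt2 has no promoter peak in any list. The ATAC and EAKO H3K27ac entries of Alpl are an intronic site whose edge reaches within 1 kb of an internal start.

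Gamt (ENSMUSG00000020150.13, chr10:80258151-80261012, minus strand, mm10), which methylates guanidinoacetate to creatine, had the highest placed Ets1 promoter peak of the 8 genes in beige cells, while in CS that of Atp2a2 was placed higher. In beige cells the peak at chr10:80260939-80261818 had a −log10 q of 254 and ranked 35 of 30553, with a fold enrichment of 15.8 over local background. In CS adipocytes the promoter peak had a −log10 q of 4.90 and ranked 4835 of 14858, and in RT adipocytes 3.84, rank 1749 of 4056. The promoter was therefore near the top of the beige list and in the upper part of the CS and RT lists, where it stood at percentiles 67.5 and 56.9. For genes with a promoter peak, the median percentile was 75.8 in beige, 71.2 in CS and 62.4 in RT lists.

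The Gamt promoter was also among the best of the EAKO and Flox lists. Its H3K27ac peak ranked 687 of 74682 in EAKO (−log10 q 81.6) and 1429 of 86834 in Flox (74.3), and its ATAC peak ranked 207 of 82839 in EAKO (163) and 1087 of 88977 in Flox (169). In the knock-in pair it was lower placed, at rank 35295 of 38484 in EA+/+ (−log10 q 1.90) and 5484 of 33713 in EC+/+ (6.99). The EA+/+ peak was the lowest placed of the 9, at percentile 8.29.

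Gamt shares this promoter with Dazap1, an RNA-binding protein gene on the other strand whose start lies 474 bp away. The best promoter peak of Gamt reached within 1 kb of a Dazap1 start in all 9 lists, so these peaks cannot be assigned to Gamt over Dazap1. Of the 4 other beige Ets1 peaks in the region, 2 lay at starts of other genes, as did both other CS peaks. Those at chr10:80264806-80265050 in beige cells (−log10 q 25.1) and chr10:80264811-80265007 in CS (6.51) were near a further Dazap1 start. Peaks at Ndufs7, which encodes a subunit of respiratory complex I, had a −log10 q of 11.1 in beige cells and 3.43 in CS. The remaining beige peaks were away from any start, 10.3 kb (−log10 q 4.73) and 15.4 kb (6.92) before that of Gamt. The RT list held 1 peak in the region, the promoter peak.

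The 250 bases before the RefSeq start of Gamt are shown because they lie under the beige Ets1 peak, with each copy of GGGCGG or its reverse complement CCGCCC in capitals (chr10:80261013-80261262, minus strand, GRCm38.p6).
Gamt promoter: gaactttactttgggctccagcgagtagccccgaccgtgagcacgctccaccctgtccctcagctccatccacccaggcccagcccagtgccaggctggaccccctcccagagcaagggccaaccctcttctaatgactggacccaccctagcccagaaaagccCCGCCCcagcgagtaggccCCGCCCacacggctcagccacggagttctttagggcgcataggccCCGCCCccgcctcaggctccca
GGGCGG, the GC box bound by factors of the Sp and KLF families, occurred 3 times here, and on either strand it is held by 35.7% of all 32851 RefSeq promoter windows of 300 bases. CCGGAA, the centre of the textbook site of ETS factors, did not occur in the Gamt window on either strand, against 14.9% of all RefSeq promoters. The study gives a shorter core, GGAA or GGAT, which was not counted, so a window without CCGGAA can still hold that core. The longer ETS letters CCGGAAGT, which contain CCGGAA, were held by 3.89% of all RefSeq promoters and by none of the windows of these genes. RefSeq promoters were matched for 6 of the 8 genes (Ckb, Ckmt2, Gatm, Gamt, Alpl with 2 windows, and Ryr2), and CCGGAA was in none of those 7 windows. Slc6a8 and Atp2a2 had no entry.

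Gatm (ENSMUSG00000027199.14, chr2:122594467-122611303, minus strand), the amidinotransferase of the first step of creatine synthesis, had H3K27ac and ATAC peaks at its promoter and no Ets1 peak there in beige, CS or RT cells. The H3K27ac promoter peak ranked 10720 of 38484 in EA+/+ (−log10 q 4.42, percentile 72.1) and 1815 of 33713 in EC+/+ (11.8, percentile 94.6). It ranked 33364 of 74682 in EAKO (7.07, percentile 55.3) and 19812 of 86834 in Flox (13.6, percentile 77.2). The ATAC promoter peak ranked 60418 of 82839 in EAKO (7.84, percentile 27.1) and 32992 of 88977 in Flox (29.7, percentile 62.9). In all 3 pairs the promoter peak was present in both libraries and held a lower percentile in EA+/+ than in EC+/+ and in EAKO than in Flox. The median percentile over all genes with a promoter peak was lower on the same sides. For H3K27ac it was 78.5 in EA+/+, 78.7 in EC+/+, 87.0 in EAKO and 88.9 in Flox. For ATAC it was 85.4 in EAKO and 87.9 in Flox.

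The region of Gatm held a second acetylated site about 20 kb before the gene start. The nearest start of a protein-coding gene was that of AA467197, 5926 bp from the EC+/+ summit and 5923 bp from the Flox summit. The site therefore cannot be assigned to Gatm over AA467197. The H3K27ac peak of this site had a −log10 q of 6.95 in EA+/+ and 10.2 in EC+/+, where it ranked 2525 of 33713. In EAKO a narrower peak of 4.37 lay 20.4 kb before the start, just outside the region counted, against a peak of 26.2 in Flox that ranked 9793 of 86834. ATAC peaks 19.3 kb before the start had a −log10 q of 28.6 in EAKO and 46.9 in Flox. The EAKO one did not overlap the EAKO H3K27ac peak. A further EAKO ATAC peak, 20.4 kb before the start (7.29), lay on that H3K27ac peak, and Flox had one at 20.2 kb (13.0). The only Ets1 peak in the Gatm region, in beige cells, overlapped the ATAC peaks at 19.3 kb. It lay at chr2:122630701-122630857 with a −log10 q of 2.14 and rank 27742 of 30553, and its summit was 6181 bp from the AA467197 start.

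Slc6a8 (ENSMUSG00000019558.14, chrX:73673150-73682502, plus strand), the creatine transporter, had an Ets1 promoter peak in beige cells and none in CS or RT. The beige list held a pair of peaks near its annotated starts, at chrX:73674348-73674710 (−log10 q 18.9, rank 5562 of 30553) and chrX:73675369-73675540 (6.28, rank 16047). Both lie after the first start of the gene, beside later starts inside it. H3K27ac overlapped the first of them in EA+/+ (−log10 q 3.43, rank 16849 of 38484) and not in EC+/+, where the only peak of the region lay 17.8 kb after the gene start (6.63). In the knockout pair H3K27ac overlapped both of them. EAKO had a peak on the first (19.5, rank 11760 of 74682) and its best peak on the second (45.2, rank 3227 of 74682). In Flox the best peak, at chrX:73673947-73675593, covered both (38.8, rank 5640 of 86834). ATAC peaks had a −log10 q of 23.2 in EAKO and 28.5 in Flox, at percentiles 63.0 and 61.5.

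Ckb (ENSMUSG00000001270.9, chr12:111669361-111672338, minus strand), the brain-type creatine kinase, had no Ets1 promoter peak in any of the 3 Ets1 lists. Its region held 5 Ets1 peaks in beige cells, 1 in CS and 0 in RT. The best of them, at chr12:111677680-111678089 in beige cells (−log10 q 15.6, rank 6810 of 30553), lay at the start of Trmt61a, a tRNA methyltransferase subunit gene. A peak after the end of the gene was shared by beige cells (chr12:111668336-111669043, −log10 q 4.91) and CS adipocytes (chr12:111668443-111668749, 2.25). It lay 3.83 kb after the gene start in both. That site also had H3K27ac in EAKO (12.5) and Flox (14.1) and was open by ATAC in EAKO (31.6) and Flox (42.0).

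At the Ckb promoter itself, the best H3K27ac peak had a −log10 q of 2.98 in EAKO (percentile 11.6) and 5.28 in Flox (percentile 46.2). These peaks did not overlap, and the Flox peak that overlapped the EAKO one had 4.17 (percentile 32.3). Neither EA+/+ nor EC+/+ had a peak at this promoter. The ATAC promoter peak ranked 43366 of 82839 in EAKO (14.7, percentile 47.7) and 26342 of 88977 in Flox (38.4, percentile 70.4). In both libraries of the knockout pair the promoter had ATAC and H3K27ac peaks, with the lower percentile in EAKO each time. The medians over all genes with a promoter peak were lower in EAKO too. They were 87.0 (EAKO) and 88.9 (Flox) for H3K27ac and 85.4 (EAKO) and 87.9 (Flox) for ATAC. All of the Ckb values lay below these medians.

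Ckmt2 (ENSMUSG00000021622.3, chr13:91853387-91876885, minus strand), the mitochondrial creatine kinase of heart and skeletal muscle, had no promoter peak in any list and no Ets1 peak in its region. The 9 lists together held 12 peaks in its region. The best H3K27ac peak of the region had a −log10 q of 5.38 in EAKO (rank 42475 of 74682), and the best ATAC peaks, 16.4 kb before the gene start, had 12.5 in EAKO (rank 47702 of 82839) and 16.2 in Flox (rank 50150 of 88977). EA+/+ had a single H3K27ac peak of 1.82 and EC+/+ had 0. An unmarked promoter in these lists does not show that the gene is silent.

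**Figure D2:**
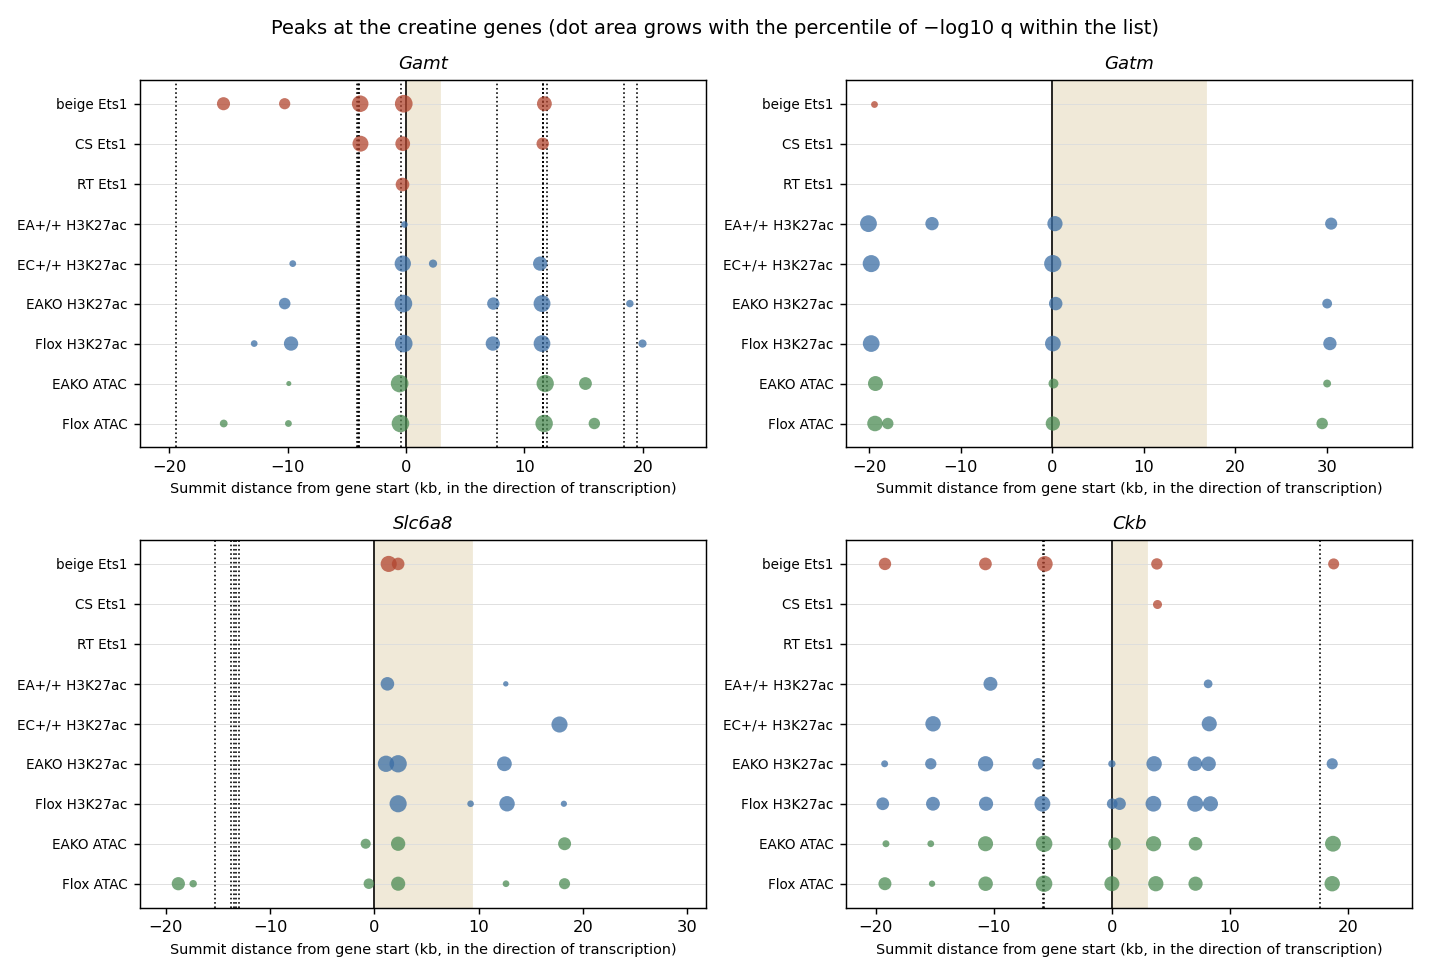
Peak summits at Gamt, Gatm, Slc6a8 and Ckb by distance from the gene start in kb (x axis), with 1 row per list; dots are Ets1 (red), H3K27ac (blue) and ATAC (green) peaks, their area grows with the percentile within the list, shading is the gene body and dotted lines are starts of other protein-coding genes. Ets1 dots stand at the start of Gamt and 1.38 and 2.29 kb after that of Slc6a8, and none at the starts of Gatm and Ckb.

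Alpl (ENSMUSG00000028766.10, chr4:137741733-137796384, minus strand) had 7 Ets1 peaks in its region in beige cells and 0 in both CS and RT. Per length of region this was 7.40 beige peaks per 100 kb, against 11.7 at Gamt and 11.6 at Ckb. The best lay in an intron at chr4:137783870-137784228 (−log10 q 11.1, rank 9715 of 30553), 12.3 kb after the first start of the gene. The peak counted at a promoter was at an internal start, at chr4:137769656-137769961 (6.54, rank 15611 of 30553). The internal start belongs to a transcript not annotated as protein-coding, and with protein-coding transcripts alone Alpl had no Ets1 promoter peak. The other 5 had a −log10 q of 2.59 to 5.19. Among them, the peaks 65.5 and 66.0 kb after the first start lay past the gene end. Their summits were 2656 and 2141 bp from a Rap1gap start. Another lay 17.9 kb before the gene.

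The intronic Alpl site was also open and acetylated in mature adipocytes. Its ATAC peak had a −log10 q of 38.0 in EAKO (rank 18382 of 82839) and 54.1 in Flox (rank 18324 of 88977). Its H3K27ac peak had 7.62 in EAKO (rank 31576 of 74682) and 10.5 in Flox (rank 25209 of 86834), and neither EA+/+ nor EC+/+ had a peak there. The most open site of the region lay past the end of Alpl in the direction of Rap1gap (−log10 q 75.2 in EAKO, 80.9 in Flox). Its summit was 65.8 kb after the first start in EAKO and 65.9 kb in Flox. The beige Ets1 peaks 65.5 and 66.0 kb after the first start overlapped it. At the first start, ATAC had a −log10 q of 3.58 in EAKO (rank 77673 of 82839) and 21.7 in Flox (rank 41898 of 88977), and H3K27ac was found in EC+/+ alone (2.98, rank 22272 of 33713). The first start of Alpl was thus placed lower than the intronic site in each list that held both.

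The 201 bases around the beige Ets1 summit of the intronic site are shown because this is the best Ets1 peak at Alpl (chr4:137784009-137784209, minus strand, GRCm38.p6). None of them are in capitals because CCGGAA occurs on neither strand. They do hold GGAA, a form of the shorter core that the study gives for ETS factors, which was not counted over all windows.
Alpl intron site, beige summit: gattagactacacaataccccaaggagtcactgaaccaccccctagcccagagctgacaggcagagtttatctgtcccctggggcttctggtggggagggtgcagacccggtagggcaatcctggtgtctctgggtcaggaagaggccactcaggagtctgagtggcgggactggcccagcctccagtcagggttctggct
Of the 7 beige summit windows at Alpl, 1 held CCGGAA, that of the peak 32.1 kb after the first start, whose −log10 q was 2.59.

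Atp2a2 (ENSMUSG00000029467.15, chr5:122453513-122502225, minus strand) was the only one of the 8 genes with an Ets1 promoter peak in CS and not in RT. The CS peak at chr5:122502295-122502695 had a −log10 q of 5.95, ranked 3578 of 14858 and had its summit 169 bp from the gene start. In beige cells an overlapping peak at chr5:122501908-122502677 had 24.9 (rank 3979 of 30553), and a second lay just inside the gene at chr5:122501178-122501533 (9.20, rank 11543). Both intervals were acetylated in every H3K27ac list. The best promoter peak had a −log10 q of 6.60 in EA+/+ (percentile 88.4), 5.06 in EC+/+ (71.2), 6.63 in EAKO (51.9) and 12.9 in Flox (75.9). The ATAC promoter peak had 12.8 in EAKO (percentile 42.8) and 26.8 in Flox (59.8).

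The Atp2a2 region also held sites away from the start. An intronic site 19.2 kb after the start in EAKO and 19.3 kb in Flox had H3K27ac of 10.2 in EAKO and 16.6 in Flox, with ATAC peaks of 21.2 in EAKO and 20.0 in Flox. A site before the gene had ATAC peaks with a −log10 q of 22.6 in EAKO and 46.8 in Flox and H3K27ac of 14.3 in EAKO and 9.24 in Flox. Neither site had an Ets1 peak.

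Ryr2 (ENSMUSG00000021313.16, chr13:11553102-12106945, minus strand), the longest of the 8 genes at 554 kb, had no Ets1 promoter peak. Its promoter had H3K27ac in EA+/+ alone (chr13:12105760-12106067, −log10 q 2.60, rank 24781 of 38484) and ATAC in Flox alone (chr13:12105535-12106464, 8.28, rank 67399 of 88977). Both are low in their lists, at percentiles 35.6 and 24.3. In the same H3K27ac pair, 6 of 13 skeletal and heart muscle marker genes had a promoter peak in EA+/+ (50.4% of all genes). In EC+/+ 1 of 13 had one (52.0%), and Myh1, Myh2, Myh4, Myh6, Ttn, Myod1 and Myog had none in either. The part of the muscle markers in the Ryr2 result was not tested. In ATAC the muscle count was 7 of 13 in EAKO (66.0% of all genes) and 6 of 13 in Flox (67.7%).

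The best Ets1 peak of Ryr2 was an intronic site far from any start. At chr13:11959601-11960179, 147 kb inside the gene, the CS peak had a −log10 q of 17.1 and ranked 428 of 14858, the highest rank of any CS peak at the 8 genes. In beige cells the site had 6.70 (rank 15081 of 30553) and in RT 5.55 (rank 881 of 4056). The same site was in all 4 H3K27ac lists, with a −log10 q of 11.7 in EA+/+ (rank 995 of 38484), 10.3 in EC+/+ (rank 2522 of 33713), 67.5 in EAKO (rank 1248 of 74682) and 60.4 in Flox (rank 2431 of 86834). Neither ATAC list had a peak on it. It was the only peak of the 8 genes found in all 7 CUT&Tag lists and no ATAC list. Over the whole CS Ets1 list, 100 of 14858 peaks (0.673%) were of that kind, as were 102 of 4056 RT peaks (2.51%) and 97 of 30553 beige peaks (0.317%). No IgG library was analysed here.

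This site is a tandem repeat. The 201 bases around the CS summit are shown with each CAGCTG, which reads the same on both strands, in capitals (chr13:11959852-11960052, minus strand, GRCm38.p6).
Ryr2 intron site, CS summit: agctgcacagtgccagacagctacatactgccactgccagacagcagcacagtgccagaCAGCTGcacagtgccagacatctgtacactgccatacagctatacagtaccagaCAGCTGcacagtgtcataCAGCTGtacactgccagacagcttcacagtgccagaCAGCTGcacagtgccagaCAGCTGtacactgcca
The 579 bp of the CS peak held 22 copies of CAGCTG and 0 of CCGGAA. Of the gaps between neighbouring copies, 14 were exactly 18 bp and the others were 36 to 60 bp. The summit window held 5 copies in CS, 7 in beige cells and 11 in RT. No other window of the beige or RT list held as many, and 5 of 14858 CS windows (0.0337%) held 5 or more. Only 7.25% of the bases of the CS peak were marked as repeat in the reference. The part of the repeat in the peaks was not tested.

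A second Ryr2 intron site was shared by CS and RT alone among the Ets1 lists. It had a −log10 q of 3.54 in CS (rank 7805 of 14858) and 4.25 in RT (rank 1377 of 4056). Of the bases within 100 bp of its summit, 91.0% in CS and 100.0% in RT were marked as repeat. Before the gene start, beige cells had a peak at chr13:12109094-12109234 (−log10 q 6.70). Of the bases within 100 bp of its summit, 55.2% were marked as repeat. At least 50% were so marked in 5.33% of all beige windows. This peak overlapped neither a Flox ATAC nor a Flox H3K27ac peak. The other Ets1 peaks of Ryr2 were each in 1 Ets1 list alone. In CS they had a −log10 q of 4.51 (438 kb after the start) and 2.14 (13.7 kb before it), and in RT 3.11 (515 kb after the start) and 2.41 (49.5 kb). The sites of Ryr2 most open by ATAC were elsewhere. The first stood 202 kb after the start (45.1 in EAKO, 56.1 in Flox) and the other just past the end of the gene at 558 kb (31.4 in EAKO, 45.9 in Flox), where H3K27ac was also found in both (15.2 in EAKO, 19.4 in Flox). Neither had an Ets1 peak.

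**Figure D3:**
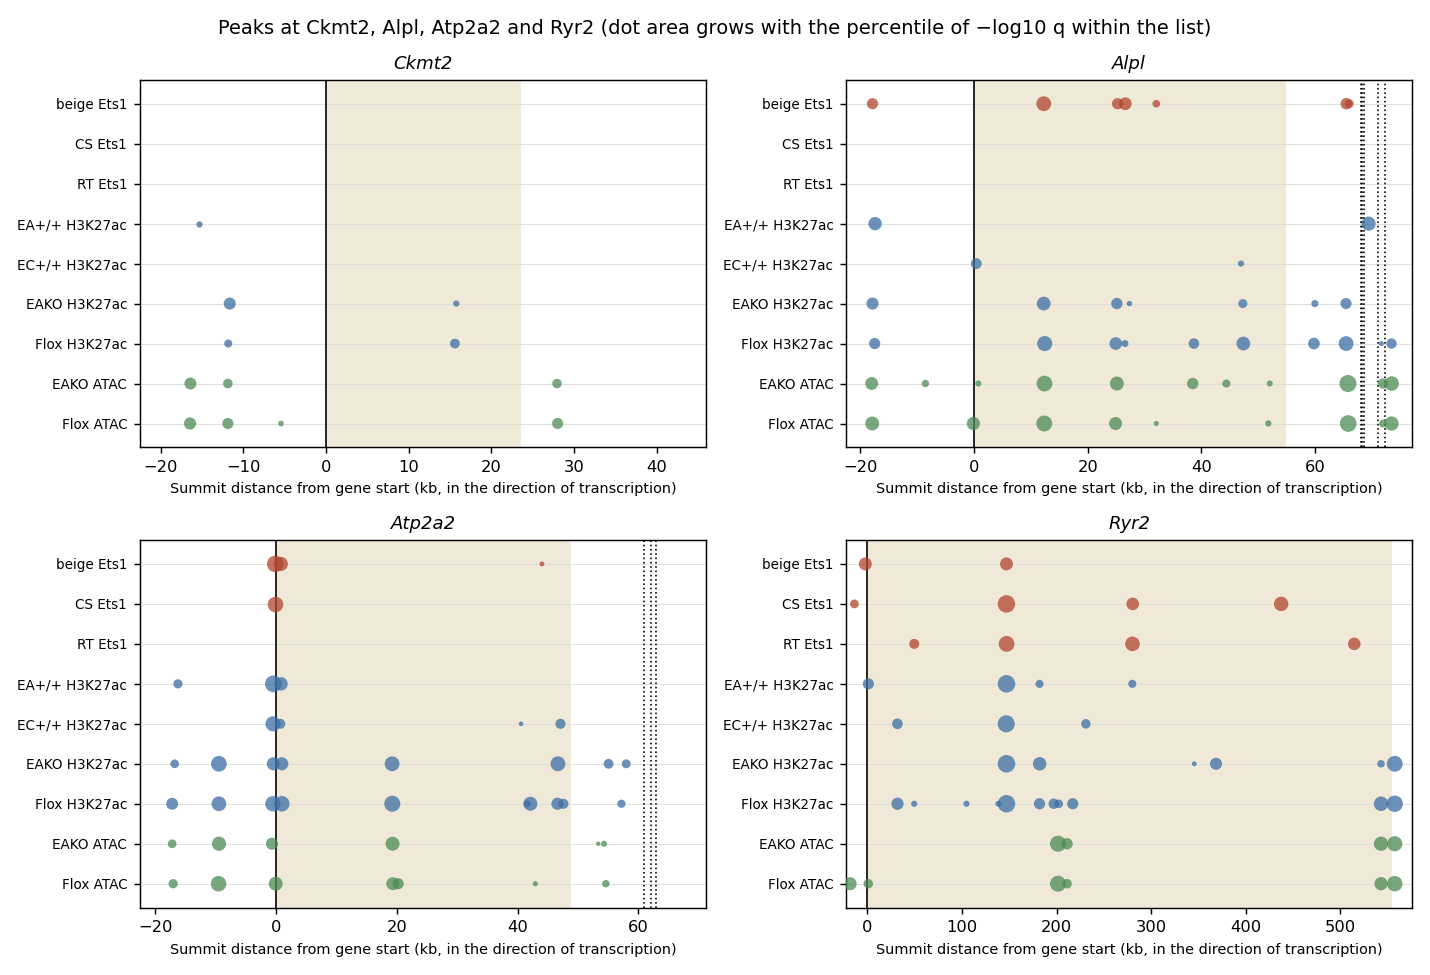
Peak summits at Ckmt2, Alpl, Atp2a2 and Ryr2 by distance from the gene start in kb (x axis), 1 row per list, with dots, shading and dotted lines for Ets1 (red), H3K27ac (blue) and ATAC (green) peaks, the gene body and starts of other protein-coding genes; dot area grows with the percentile within the list. The Ryr2 site 147 kb after the start has a dot in the 7 CUT&Tag rows and none in the ATAC rows, and Alpl has 7 Ets1 dots, all in beige cells.

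The first comparison asked how Ets1 binding at these genes stood after cold. Atp2a2 alone had a promoter peak in CS and not RT (1 of 8; 29.1% of all genes), Gamt had one in both (1 of 8; 3.63%), and none had one in RT alone (0.428%). Over the 8 regions, 6 of 9 CS peaks overlapped no RT peak (88.0% of all CS peaks) and 2 of 5 RT peaks overlapped no CS peak (55.9% of all RT peaks). The 3 shared peaks were the Gamt promoter and both intron sites of Ryr2. The 6 in CS alone were at Ckb (1), Gamt (2), Atp2a2 (1) and Ryr2 (2). The RT list was the shortest of the 9, and when both lists were limited to their 4056 best peaks, 3 CS peaks were left at the 8 genes, of which 2 overlapped no RT peak. The Gamt promoter was then found in RT alone.

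The comparison of cultured beige cells with CS adipocytes held the most Ets1 peaks in 1 library alone. Slc6a8 and Alpl had a promoter peak in beige cells and not in CS (2 of 8; 17.1% of all genes), Gamt and Atp2a2 in both (2 of 8; 29.3%) and none in CS alone (3.39%). Over the regions, 19 of 25 beige peaks overlapped no CS peak (78.7% of all beige peaks) and 3 of 9 CS peaks overlapped no beige peak (56.0% of all CS peaks). The beige peaks without a CS peak were spread as 7 at Alpl, 4 at Ckb, 2 each at Gamt, Slc6a8 and Atp2a2, and 1 each at Gatm and Ryr2. All 3 CS peaks without a beige peak were at Ryr2. These groups differ in culture, age and cold exposure together, which cannot be told apart. When both lists were limited to their 14858 best peaks, Slc6a8 alone kept a beige promoter peak without one in CS, and 5 of 9 beige peaks overlapped no CS peak.

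In the knock-in comparison, the promoters of Slc6a8 and Ryr2 had H3K27ac in EA+/+ alone (2 of 8, against 7.33% of all genes). The Alpl promoter had it in EC+/+ alone (1 of 8, against 8.89%). Those of Gatm, Gamt and Atp2a2 had it in both (3 of 8, against 43.1%). Over the regions, 12 of 19 EA+/+ peaks overlapped no EC+/+ peak (60.7% of all EA+/+ peaks) and 11 of 18 EC+/+ peaks overlapped no EA+/+ peak (54.9% of all EC+/+ peaks). At a q-value under 0.001 in both lists, Slc6a8 kept its promoter peak in EA+/+ alone. Ryr2 and Alpl then had no promoter peak in either, and Gamt had one in EC+/+ alone.

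In the knockout comparison, H3K27ac marked the promoters of the same 6 genes in EAKO and Flox (6 of 8; 58.7% of all genes in both), and 0 were in EAKO alone (1.75%) or Flox alone (5.18%). Over the regions, 7 of 42 EAKO peaks overlapped no Flox peak (26.0% of all EAKO peaks) and 20 of 55 Flox peaks overlapped no EAKO peak (35.9% of all Flox peaks). The Flox peaks without an EAKO peak were most at Ryr2 (7 of 11), followed by Alpl and Atp2a2 (4 of 10 each). The best promoter peak of Alpl was at an internal start near the intronic site in EAKO and at another internal start in Flox (2.63, rank 77872 of 86834), where the peak on the intronic site ended outside the 1-kb window. A second EAKO peak (2.23, rank 72050 of 74682) lay within 1 kb of the same start as the Flox one, without overlapping it. At a q-value under 0.001, Alpl had a promoter peak in EAKO alone and Ckb in Flox alone.

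In the ATAC comparison, 6 of 8 promoters were open in both libraries (65.2% of all genes), 0 in EAKO alone (0.784%) and 1, Ryr2, in Flox alone (2.54%). Over the regions, 4 of 42 EAKO peaks overlapped no Flox peak (8.98% of all EAKO peaks) and 10 of 49 Flox peaks overlapped no EAKO peak (16.6% of all Flox peaks). Of the 4 EAKO peaks, 3 were at Alpl, with a −log10 q of 4.48 to 10.9, and 1 at Atp2a2 (1.69). The Flox list was the longer, and 3 of its 10 were at Slc6a8. Over all genes with a promoter peak, the median ATAC percentile was 85.4 in EAKO and 87.9 in Flox. The percentile of the best promoter peak was lower in EAKO than in Flox for Gatm, Ckb, Alpl and Atp2a2. It was higher in EAKO for Gamt (99.8 in EAKO, 98.8 in Flox) and Slc6a8. For Alpl the best promoter peak was the intronic site (77.8 in EAKO, 79.4 in Flox), whose edge reached within 1 kb of an internal start. At the first start of Alpl the percentile was 6.24 in EAKO and 52.9 in Flox.

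**Figure D4:**
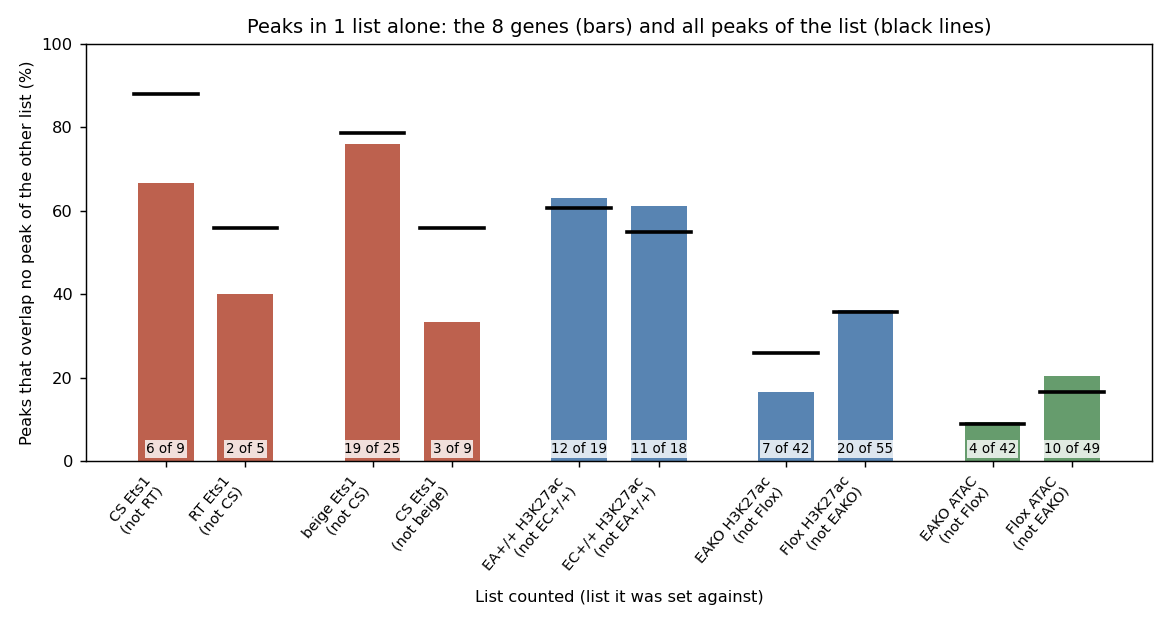
Bars give the percentage of the peaks at the 8 genes in 1 list that overlap no peak of the list it was set against (y axis), with the counts inside; black lines give the same percentage over all peaks of the list. The bars lie on both sides of the lines, from 4 of 42 EAKO ATAC peaks to 19 of 25 beige Ets1 peaks.

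The Ets1 peaks at these genes overlapped chromatin open in mature adipocytes at shares near, and a little under, those of all peaks of each list. In the regions, 19 of 25 beige peaks overlapped a Flox ATAC peak (85.5% of all beige peaks), as did 4 of 9 CS peaks (53.4% of all CS peaks) and 1 of 5 RT peaks (24.3% of all RT peaks). The RT peak was the Gamt promoter, and the 4 CS peaks were the Gamt promoter, the Ndufs7 start in its region, the site after the end of Ckb and the Atp2a2 start. Of the 5 CS peaks off open chromatin 4 were at Ryr2, as were all 4 such RT peaks. Flox H3K27ac was overlapped by 18 beige (77.4%), 5 CS (64.3%) and 3 RT peaks (47.2%). For the 6 genes with RefSeq promoters, CCGGAA was within 100 bp of the summit in 1 of 20 beige windows (10.1% of all beige windows), 1 of 8 CS windows (9.47%) and 0 of 5 RT windows (3.23%). The CS window with CCGGAA was at Ndufs7 in the Gamt region. CCGGAAGT was in none of these windows, against 2.65% of all beige, 2.23% of all CS and 0.444% of all RT windows.

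The other genes of creatine handling and phosphatases (Ckm, Ckmt1, Slc16a12, Mat2a, Ahcy, Phospho1, Alpi, Akp3 and Alppl2) were counted in the same way. Of these 9 genes, 3 had an Ets1 promoter peak in beige cells (46.4% of all genes), 2 in CS (32.7%) and 0 in RT (4.06%), counts near those shares. Mat2a and Phospho1 had one in CS and not RT. Mat2a, which makes the methyl donor S-adenosylmethionine, had a −log10 q of 52.7 in beige cells and 8.68 in CS. Phospho1, a phosphatase known from bone mineralisation, had 20.9 in beige cells and 6.80 in CS. Ahcy, which clears S-adenosylhomocysteine, had a peak in beige cells (6.70) and not in CS. H3K27ac was at 5 of the 9 in EA+/+ (50.4% of all genes) and 3 in EC+/+ (52.0%). Phospho1 (2.80) and Akp3 (2.27) had it in EA+/+ alone (7.33% of all genes). The mark was at 4 in EAKO (60.5%) and 6 in Flox (63.9%), with Ckm (2.71) and Akp3 (2.04) in Flox alone (5.18%). ATAC was at 6 in EAKO (66.0%) and 5 in Flox (67.7%), with Ckmt1 (7.71) in EAKO alone (0.784%).

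The 25 other genes of the calcium cycle are pumps, release channels, store sensors and calcium-binding proteins. Of these, 13 had an Ets1 promoter peak in beige cells (46.4% of all genes), 13 in CS (32.7%) and 2 in RT (4.06%). The 2 in RT were Itpr1, an IP3 receptor, and Asph, whose locus also encodes junctin, with a −log10 q of 4.73 each. In CS and not RT there were 11 of 25 (29.1% of all genes), led by the kinase gene Camk2d (11.1), the channel gene Orai1 (8.66) and Vdac1 (8.51), the voltage-dependent anion channel of the outer mitochondrial membrane. Fkbp1b, whose product binds the ryanodine receptor, had a peak in beige cells (2.95) and not in CS. In CS and not beige cells there were Atp2a3 (5.37), another SERCA pump, and Casq1 (3.96), which stores calcium in muscle. H3K27ac was at 14 of 25 in EA+/+ (50.4% of all genes) and 13 in EC+/+ (52.0%), counts near those shares. Itpr3 (2.98) and Atp2a3 (2.56) had it in EA+/+ alone (7.33% of all genes) and Orai1 (5.03) in EC+/+ alone (8.89%). The same 16 had it in EAKO and Flox (58.7% of all genes in both). ATAC was at 18 in EAKO (66.0%) and 21 in Flox (67.7%). The 3 in Flox alone (2.54% of all genes) were Hrc (127), Ryr3 (11.3) and Fkbp1b (2.71). Pln and Sln, inhibitors of SERCA pumps, and Atp2a1 and Trdn, a SERCA pump and triadin of skeletal muscle, had no promoter peak in any list. Neither had the intestinal phosphatase gene Alpi or Alppl2 of the creatine and phosphatase list.

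For each gene, the protein-coding genes with the most alike promoter pattern were those with the smallest mean difference in percentile over the 9 lists, with no peak set to 0. For Gamt this was Dazap1, at a mean difference of 1.36 percentile points, which shares the promoter, then Osbp (3.65) and Vcl (4.29). For Atp2a2 they were Ppp4r4 (4.92), Eif4h (5.29) and Hnrnpu (5.97). For Gatm they were Zdhhc15 (2.39), Hopx (3.32) and Zdhhc2 (3.48), and for Slc6a8 Il2rb (4.00), Ddr1 (4.03) and Baz2b (4.62). For Alpl they were E2f2 (4.88), Myom3 (5.87) and Ripor3 (6.29), and for Ckb Ppfia2 (1.84), Lef1 (2.61) and Six2 (2.76). For Ryr2 they were Kcnma1, Rimkla and Ccdc81, at 0.820 or less. Ckmt2 shared its lack of any promoter peak with 5790 other genes, so none was nearest. No other of the 8 genes was among the nearest of any.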

How the data were processed

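The files were narrowPeak lists, 1 per library. The authors trimmed adaptors, aligned read pairs with BWA to mm10 and called peaks with MACS2 at a q-value under 0.05. SAMtools and deepTools are further tools in the submitters' notes. Any control library given to MACS2 was not given in the sources used here. Each deposited list gives a score, a fold enrichment (a linear ratio over local background), the −log10 of the p-value and the −log10 of the q-value, which the authors' peak caller wrote. These values depend on depth and background, so they were used only within a list. The lists themselves do not show depth. Read totals that the study states in its reporting summary were left out, so the part of depth in the number of peaks was not tested.

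The genes and gene lists were chosen with earlier results of these data known. All 8 genes are named. Of the related genes, those named per comparison are at most the 3 with the highest −log10 q among promoter peaks in 1 library alone, and any list of 5 or fewer. The genes most alike are the 3 with the smallest summed percentile difference. Promoters were 1 kb on each side of 93513 starts in GENCODE M21, and an overlap of 1 bp made a peak shared. Ranks tie at the best rank. Coordinates are 1-based. Motifs were counted on both strands in 201-base windows around Ets1 summits and in RefSeq promoters (250 bases before to 50 after the start) of GRCm38.p6. Marker genes of muscle, mural, progenitor, endothelial and macrophage cells were counted in the same way as adipocyte markers. Scripts used Python 3.11.15, NumPy 2.4.6, pandas 2.3.3 and Matplotlib 3.10.9, and the overlap and motif code was tested on simulated data. Alternatives were a stricter q-value, equal numbers of best peaks, wider promoters, protein-coding starts, the gene body alone and a reciprocal overlap of 50%. Some items of the related lists and sequences are not reported here.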

Additional observations from a re-analysis of the deposited data

How the results depend on the processing

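Of 40 alternatives over 10 counts, 24 stayed within 1.5 times the count reported and 16 did not. The values given here count promoters or peaks in the first library of a pair alone. With equal numbers of best peaks, CS peaks without an RT peak became 2 (6 in the report), beige promoters without a CS peak 1 (2), beige peaks without a CS peak 5 (19) and EAKO H3K27ac promoters 1 (0). With the gene body alone, which is a shorter region, the peak counts became 1 for CS against RT (6), 8 for beige against CS (19), 4 for EA+/+ against EC+/+ (12), 3 for EAKO against Flox H3K27ac (7) and 2 for EAKO against Flox ATAC (4). At a q-value under 0.001, EA+/+ promoters became 1 (2), EA+/+ peaks 6 (12) and EAKO H3K27ac promoters 1 (0). With protein-coding starts only, beige promoters became 1 (2) and EAKO H3K27ac promoters 1 (0). A promoter of 3 kb gave 2 CS promoters (1), with Ckb added. A reciprocal overlap of 50% gave 15 EAKO H3K27ac peaks without a Flox peak (7). No paired analysis was possible because each group has 1 library, and no library could be left out for the same reason. Counts of peaks in 1 library alone also depend on depth, whose part was not tested.

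Among the markers of other cells, promoter peaks in the beige, CS and RT Ets1 lists were at 4, 1 and 0 of 8 progenitor genes, 3, 0 and 0 of 8 mural genes, 0, 2 and 0 of 5 endothelial genes, 2, 0 and 0 of 6 macrophage genes and 2, 2 and 0 of 13 muscle genes. In H3K27ac of EA+/+, EC+/+, EAKO and Flox the counts were 3, 5, 8 and 8 (progenitor), 3, 4, 5 and 6 (mural), 2, 2, 4 and 4 (endothelial), 1, 1, 1 and 2 (macrophage) and 6, 1, 4 and 4 (muscle). In ATAC of EAKO and Flox they were 7 and 7, 6 and 7, 3 and 4, 2 and 2, and 7 and 6 in that order. Over all genes, the shares were 46.4%, 32.7% and 4.06% in beige, CS and RT Ets1. They were 50.4% (EA+/+), 52.0% (EC+/+), 60.5% (EAKO) and 63.9% (Flox) in H3K27ac, and 66.0% (EAKO) and 67.7% (Flox) in ATAC.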
